A study of Mus musculus with 19 samples.

Results

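A set of 44 genes of DNA replication and mitosis, out of 54352 genes counted, was followed through 19 RNA-seq libraries of mouse CMP and LSK cells carrying a hairpin against the lncRNA Spehd or a control hairpin. The genes were taken from a list of names chosen with earlier results of these data known. Of them, 15 act in origin licensing, the replicative helicase and nucleotide supply (replication genes). The other 29 act mostly from entry into mitosis to cytokinesis (mitosis genes). The proliferation markers Top2a and Mki67 and the cyclin Ccna2 were placed among the mitosis genes. All 44 were counted in the files and all passed the filter on low counts in each comparison. CMP (common myeloid progenitors) are committed to the myeloid branches, and LSK cells (labelled KLS; lineage-negative, Sca-1+, cKit+) hold the stem cells and multipotent progenitors. The donor cells were C57BL6 hematopoietic stem cells transduced with a doxycycline-inducible vector in which the hairpin is reported by zsGreen. They were transplanted into sub-lethally irradiated C57BL/6-CD45.1; cKit-w41 hosts, left for 10 weeks, and induced with doxycycline in the food for 6 days, the Renilla animals included. Only zsGreen+ cells were sorted, so that untransduced donor cells and host cells were left out. The CMP groups were hairpin 12928-10 (sh10, 3 libraries), hairpin 12928-20 (sh20, 2 libraries) and the Renilla luciferase hairpin (4 libraries). The LSK groups held 3, 3 and 4 libraries of the same hairpins. The labels do not say whether the libraries of a group came from separate animals, so the p-values measure the spread between these libraries, which may be technical.

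In a dividing cell the Mcm2 to Mcm7 helicase is loaded onto origins by Cdc6 and Cdt1, and geminin (Gmnn) blocks Cdt1 so that origins fire once per cycle. Transcription of these genes climbs at the G1/S boundary under E2F factors, whereas genes of the spindle, kinetochore and cytokinesis machinery climb in G2 and are controlled through CHR and CCAAT elements. In bone marrow, long-term stem cells are mostly quiescent and committed progenitors cycle fast, and in a sorted population fewer cycling cells and less RNA per cycling cell cannot be told apart.

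The replication and mitosis genes differed in the short words of their promoters. RefSeq promoters (GRCm38.p6, 250 bases before to 50 after the start) were matched by symbol for 38 of the 44 genes, 13 replication genes and 25 mitosis genes. The E2F words TTTGGCGC, TTTCCCGC, TTTGCCGC and TTTCGCGC, sought on both strands, were held by 6 of 13 replication genes, 1 of 25 mitosis genes and 2.26% of 32851 promoters of the same length. The CHR word TTTGAA was held by 2 of 13 replication genes, 20 of 25 mitosis genes and 17.9% of all promoters. CCAAT was held by 10 of 13, 21 of 25 and 37.4%. CHR and CCAAT stood together in 2 of 13, 18 of 25 and 6.95%. The 6 replication genes with an E2F word were Mcm3, Mcm5, Mcm6, Mcm7, Cdc6 and Cdt1, and the mitosis gene with one was Cdk1. A match is a description of these letters and not a site.

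The 160 bases before the start are shown for 6 genes, chosen as holders of an E2F or CHR word among the genes described below, 5′ to 3′ on the gene's own strand, with the words on either strand in capitals. Overlapping E2F words on opposite strands form the longer runs in Mcm5 and Mcm6. GCGGGAAA is the E2F word of Cdc6 read from the other strand, and ATTGG and TTCAAA are CCAAT and the CHR word read likewise. Ect2 has more than 1 RefSeq promoter, of which the first is shown.
Mcm5, chr8:75109349-75109508, plus strand: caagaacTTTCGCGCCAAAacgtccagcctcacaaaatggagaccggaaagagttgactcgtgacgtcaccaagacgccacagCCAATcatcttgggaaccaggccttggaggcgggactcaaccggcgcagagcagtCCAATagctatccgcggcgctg
Mcm6, chr1:128359706-128359865, minus strand: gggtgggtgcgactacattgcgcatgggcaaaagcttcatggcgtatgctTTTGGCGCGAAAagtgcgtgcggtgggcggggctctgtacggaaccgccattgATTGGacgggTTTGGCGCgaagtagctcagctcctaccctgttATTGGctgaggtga
Cdc6, chr11:98907991-98908150, plus strand: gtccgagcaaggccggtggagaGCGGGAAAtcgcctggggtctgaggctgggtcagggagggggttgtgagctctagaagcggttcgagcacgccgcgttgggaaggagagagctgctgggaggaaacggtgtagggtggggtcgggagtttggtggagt
Cdk1, chr10:69352913-69353072, minus strand: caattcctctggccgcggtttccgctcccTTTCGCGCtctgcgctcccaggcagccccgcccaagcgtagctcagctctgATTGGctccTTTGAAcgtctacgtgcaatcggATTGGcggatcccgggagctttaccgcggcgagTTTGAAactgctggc
Ube2c, chr2:164769769-164769928, plus strand: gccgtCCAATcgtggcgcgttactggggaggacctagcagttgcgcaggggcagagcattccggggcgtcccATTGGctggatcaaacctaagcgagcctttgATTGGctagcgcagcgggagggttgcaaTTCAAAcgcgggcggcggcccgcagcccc
Ect2, chr3:27153855-27154014, minus strand: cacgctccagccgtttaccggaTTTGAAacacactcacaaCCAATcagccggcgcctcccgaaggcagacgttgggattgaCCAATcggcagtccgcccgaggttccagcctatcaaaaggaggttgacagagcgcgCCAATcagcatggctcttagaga
Cdk1, the kinase that drives entry into mitosis, held words of both kinds, with E2F at -131, CHR at -71 and -15, and CCAAT at -80 and -48 from the start. Mcm5 held its E2F words at -153 and -149, and Mcm6 at -110, -106 and -47.

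The libraries held 3647318 to 5965155 counts on genes after the removal of duplicate reads, and the 44 genes took between 0.788% and 1.08% of them. All 5 CMP Spehd hairpin libraries were deeper (4918631 to 5965155) than the 4 CMP Renilla libraries (3857980 to 4314959). Spehd is not among the gene names counted, so the knockdown was not measured here. Checked against markers of the sorted cells, Ly6a, which encodes Sca-1, was at 39.7 to 90.7 CPM (counts scaled to the library total) in LSK and 1.58 to 9.72 CPM in CMP, the stem cell factor Hlf at 157 to 294 against 26.6 to 82.8 CPM, and the erythroid factor Gata1 at 59.2 to 138 against 250.1 to 307 CPM. Not every listed marker separated in this way. Under Renilla the stem cell marker Mllt3 was at 33.4 to 63.9 CPM in LSK and 54.5 to 88.75 CPM in CMP. The erythroid marker Car2 was at 316 to 415 and 365.5 to 404 CPM. One library stood apart. Differences between LSK sh10 B and its replicates A and C were 37.7 and 45.2 times counting noise (chi-square per degree of freedom), against 5.24 between A and C, and it had the lowest mitosis gene level of all 19 libraries. The CMP sh20 libraries (27.8) and the LSK sh20 libraries (13.9 to 18.3) also differed more than Renilla replicates (5.47 to 8.07). Results that rest on LSK sh10 B are given with and without it.

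Averaged over the 15 replication genes, the log2 CPM of every CMP Renilla and CMP sh10 library (7.916 to 8.003) lay above that of every LSK library (7.66 to 7.79). The CMP sh20 libraries B and C stood at 7.79 and 7.88. The mean over the 29 mitosis genes spread more: it was 7.39 to 7.51 in CMP Renilla, 7.63 to 7.70 in CMP sh10, 7.46 and 7.62 in CMP sh20, and 7.42 to 7.56 in LSK Renilla. In LSK sh10 it was 7.44 (A), 6.56 (B) and 7.52 (C), and in LSK sh20 it was 7.78 (A), 7.61 (B) and 7.21 (C). The spread within groups was therefore unlike for the gene classes: the median SD of log2 CPM within groups was 0.096 for a replication gene and 0.303 for a mitosis gene, or 0.086 and 0.168 without LSK sh10 B.

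**Figure D1:**
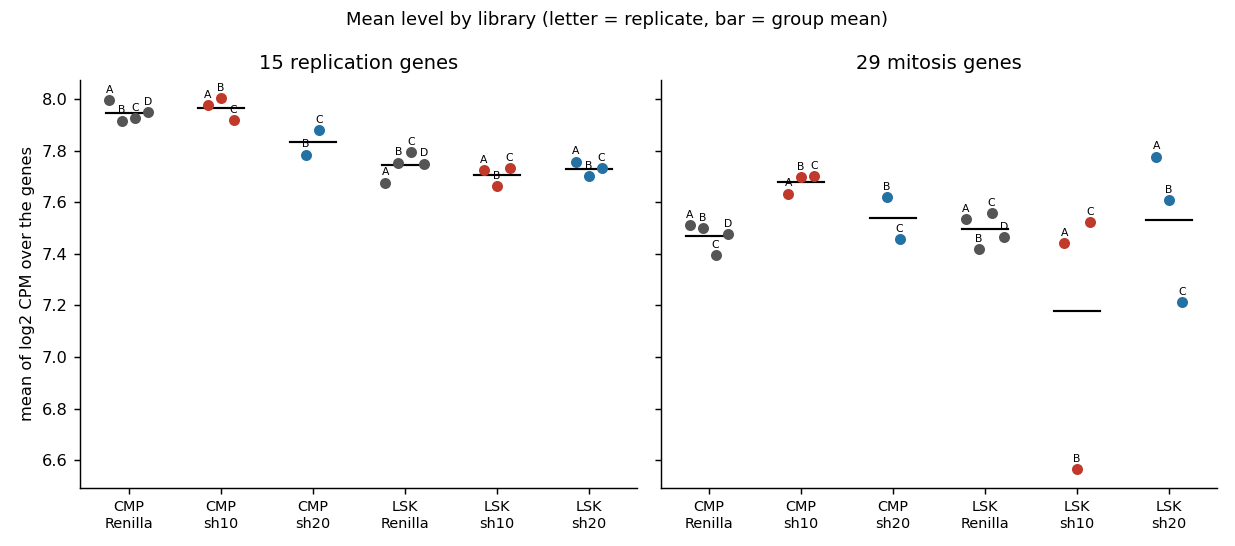
Mean of log2 CPM over the 15 replication genes (left) and the 29 mitosis genes (right) in each library, by group; points are libraries with their replicate letter and bars are group means. LSK sh10 B is at 6.56 for the mitosis genes, below every other library.

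Per exonic length, the most abundant of the 44 in CMP Renilla were the cyclin Ccnb2 at 152.5 CPM per exonic kb, the anaphase activator Cdc20 at 129, Mcm6 at 128.5 and Mcm3 at 125. In LSK Renilla the same genes led, with Ccnb2 at 136 and Mcm3 at 122. Large kinetochore and contractile ring genes were the lowest per length, with Cenpf at 5.94 (CMP) and 8.95 (LSK) and Anln at 12.6 and 11.7. Levels given below are CPM per gene with TMM-scaled totals, except marker lists and marker genes, which are scaled to the plain total, and are compared only between libraries for the same gene.

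Among licensing genes, the helicase loader Cdc6 (chr11:98907801-98923940, plus strand, mm10) stood at 225, 212, 179 and 175 CPM in CMP Renilla and 146, 141, 112 and 132 CPM in LSK Renilla. It was at 216, 234 and 210.1 CPM in CMP sh10, 204 and 239.5 in CMP sh20, 158, 121 and 156 in LSK sh10 and 104, 132 and 159.8 in LSK sh20. Every CMP library was above every LSK library. The helicase subunit Mcm2 (chr6:88883474-88898780, minus strand) was at 582, 543, 542 and 519.6 CPM in CMP Renilla, 544, 557 and 542 in CMP sh10 and 451 and 484 in CMP sh20. In LSK it was at 456, 458, 492 and 457 CPM (Renilla), 458, 470.4 and 462 (sh10) and 449, 441 and 429 (sh20). The CMP and LSK libraries of each hairpin did not overlap for Mcm2, though CMP sh20 overlapped LSK Renilla. Mcm5, another subunit of the ring, was at 449.7, 414, 437 and 444 CPM in CMP Renilla, 434, 444 and 427 in CMP sh10, 395 and 401 in CMP sh20, 385, 394, 424 and 403 in LSK Renilla, 376, 427 and 380.4 in LSK sh10 and 404, 389 and 369 in LSK sh20.

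Cdt1, the partner of Cdc6 in loading the helicase, was at 194, 186, 173 and 174 CPM in CMP Renilla, 216, 208 and 186 in CMP sh10 and 169 and 197 in CMP sh20. In LSK, Cdt1 was at 135, 161, 145 and 173 CPM (Renilla), 176, 224 and 170.5 (sh10) and 164, 145 and 175 (sh20), and LSK sh10 B was the highest of all libraries. Its inhibitor geminin, Gmnn (chr13:24751845-24761923, minus strand), was at 102, 109, 108 and 118 CPM in CMP Renilla and 68.9, 87.4, 85.9 and 75.8 CPM in LSK Renilla, with no overlap. Under the Spehd hairpins Gmnn was at 105, 103 and 91.7 (CMP sh10), 104 and 102 (CMP sh20), 85.1, 89.2 and 78.9 (LSK sh10) and 109, 75 and 84.7 CPM (LSK sh20), and the sh20 groups overlapped.

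Of the genes of nucleotide supply and synthesis, Rrm2 (chr12:24708241-24714146, plus strand), the regulated subunit of ribonucleotide reductase, was at 318, 273, 278 and 306 CPM in CMP Renilla and 228, 222, 248 and 238 CPM in LSK Renilla. It was at 287, 302 and 261 (CMP sh10), 270.3 and 284 (CMP sh20), 227, 219 and 229 (LSK sh10) and 239, 234 and 242 CPM (LSK sh20), and each CMP library exceeded each LSK library. The sliding clamp Pcna was at 76.9, 75.8, 78.4 and 82.7 (CMP Renilla), 73, 66.3 and 68.1 (CMP sh10), 63.9 and 68 (CMP sh20), 63, 71.5, 84 and 73.2 (LSK Renilla), 67.3, 63.7 and 64.8 (LSK sh10) and 71.8, 67.1 and 66.9 CPM (LSK sh20). Thymidylate synthase, Tyms, was at 185, 169, 159 and 172, 167, 158 and 148, 151 and 148, 162, 144, 172 and 169, 143, 164 and 140.4 and 147, 156 and 141 CPM in the same order of groups. The cell types overlapped under Renilla for Pcna and Tyms.

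**Figure D2:**
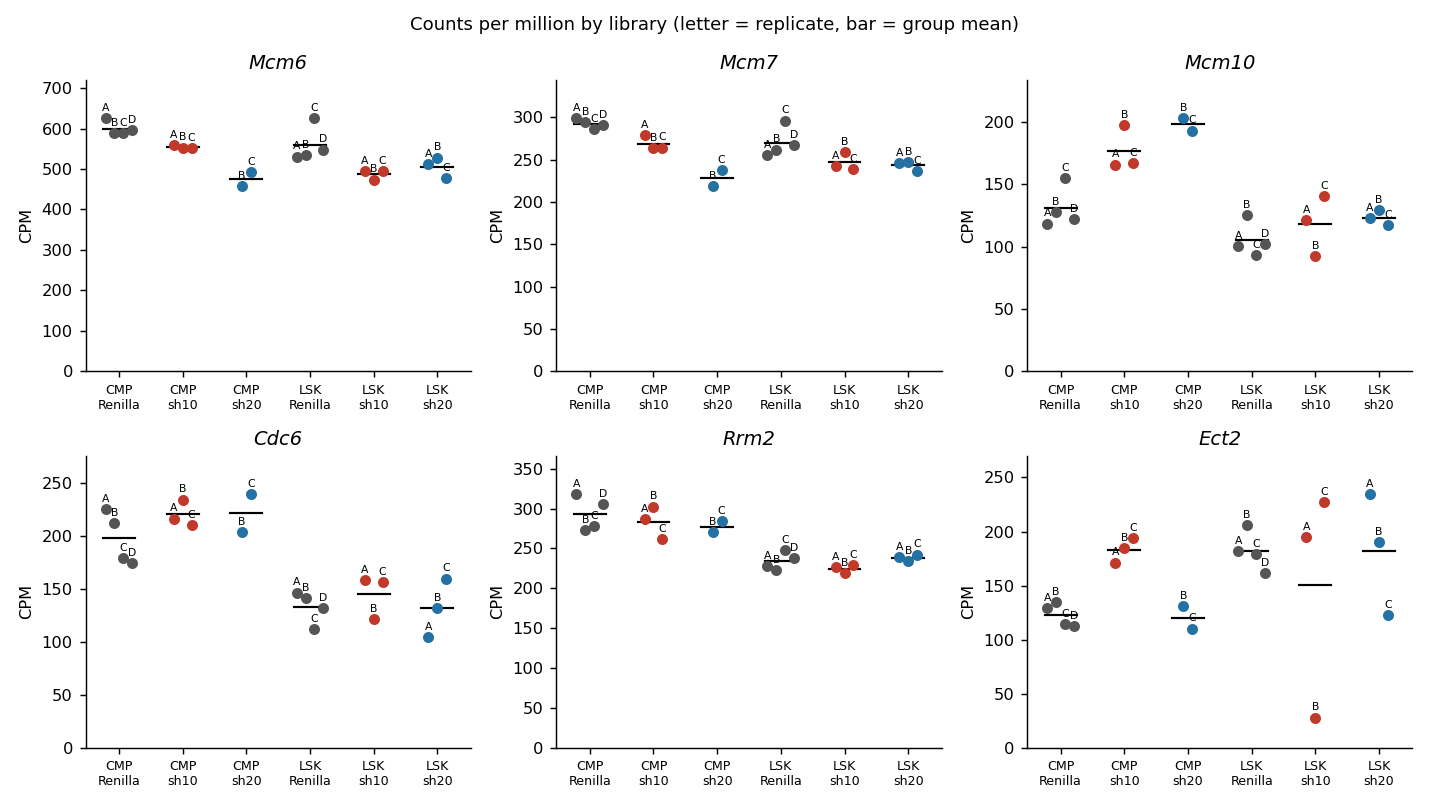
CPM (linear axes from 0) of Mcm6, Mcm7, Mcm10, Cdc6, Rrm2 and Ect2 in each library; points are libraries with their replicate letter and bars are group means. Cdc6 and Rrm2 were higher in every CMP library than in every LSK library, and Ect2 in LSK sh10 B was at 27.9 CPM against 195 and 227 in A and C.

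The proliferation markers behaved in another way. Top2a, the topoisomerase that untangles sister chromatids, was at 520.5, 501, 535 and 420.2 CPM in CMP Renilla, 603, 627 and 682 in CMP sh10 and 554 and 564 in CMP sh20. In LSK it was at 569.7, 559, 602 and 574 (Renilla), 596, 176 and 610.2 (sh10) and 608, 539.9 and 526 CPM (sh20). Mki67, which encodes the Ki-67 antigen, was at 219, 240, 227 and 176 (CMP Renilla), 437, 276 and 319 (CMP sh10), 283 and 291 (CMP sh20), 290.3, 231, 365 and 368 (LSK Renilla), 315, 94.5 and 276 (LSK sh10) and 292, 213 and 167 CPM (LSK sh20). Both genes were higher in each CMP Spehd library than in each CMP Renilla library, and both were lowest of all in LSK sh10 B. The CMP Spehd libraries were also all deeper than the CMP Renilla libraries. The share of all genes that separate in this way was not counted, here or for Kif11 and Birc5 below.

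The SD of log2 CPM within groups was 0.413 for Top2a, or 0.101 without LSK sh10 B, and 0.462 or 0.288 for Mki67. For the cyclins Ccna2 and Ccnb1 and the kinase Cdk1 it was 0.095, 0.163 and 0.1 without that library. Ccna2, which serves S phase and G2, was at 349, 344, 315 and 316 (CMP Renilla), 329, 362 and 363 (CMP sh10), 327 and 344 (CMP sh20), 274, 285, 289 and 275 (LSK Renilla), 282, 196 and 291 (LSK sh10) and 356, 323 and 276 CPM (LSK sh20). The mitotic cyclin Ccnb1 was at 102, 106, 97 and 98.7, 110.2, 107 and 99.6, 95.4 and 89.4, 77.1, 71.7, 88.4 and 71.5, 75.1, 54.9 and 79.3 and 97.8, 87.7 and 62.3 CPM in these groups, and Cdk1 (chr10:69335146-69352938, minus strand) at 184, 199.6, 166 and 186, 170.2, 162 and 166, 159 and 152, 136, 148, 166 and 151, 149, 154 and 140.5 and 172, 161 and 144 CPM. CMP and LSK Renilla did not overlap for Ccna2 and Ccnb1, and for Cdk1 they met at 166 CPM (replicate C of both).

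The mitotic kinases split in LSK sh10 B. Aurkb, the kinase of the chromosomal passenger complex, was at 249, 240.5, 215 and 236 (CMP Renilla), 254, 258 and 258 (CMP sh10), 238 and 242 (CMP sh20), 222, 220.2, 242 and 212 (LSK Renilla), 210.4, 236 and 218 (LSK sh10) and 279, 242 and 214 CPM (LSK sh20). Plk1, which acts from centrosome maturation to cytokinesis, was at 226, 205, 181 and 199, 233, 245 and 225, 241 and 194, 166, 143, 175 and 157, 151, 195 and 153 and 175, 214 and 152 CPM in these groups. The spindle checkpoint kinase Bub1 was at 147, 122, 99.5 and 143, 155, 176 and 161, 146 and 118, 140.1, 119, 125 and 115, 114, 29.6 and 135 and 141, 156 and 92 CPM. In LSK sh10 B, Aurkb and Plk1 were the highest of their group and Bub1 was the lowest of all libraries.

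The kinetochore genes spread widely among the LSK libraries. Cenpf, an outer kinetochore protein, was at 78.2, 78, 96.5 and 114 (CMP Renilla), 132, 93.4 and 110.1 (CMP sh10), 95.7 and 126 (CMP sh20), 133, 109.5, 163 and 147 (LSK Renilla), 140.5, 52.2 and 124 (LSK sh10) and 99.4, 98.7 and 46.1 CPM (LSK sh20). Ndc80, which binds the spindle microtubules, was at 102, 86.8, 100.5 and 109, 86.5, 102 and 105, 127 and 105, 111, 109, 121 and 112, 101, 31.4 and 112 and 164, 133 and 97 CPM. Cenpf was lower in each LSK sh20 library than in each LSK Renilla library, and the Ndc80 libraries of these groups overlapped. The spindle motor Kif11 was at 303, 275, 284 and 279 (CMP Renilla), 322, 370.3 and 397 (CMP sh10), 402 and 312 (CMP sh20), 322, 308, 324 and 300.3 (LSK Renilla), 296, 84.6 and 361 (LSK sh10) and 447, 305 and 285 CPM (LSK sh20). Tpx2, which nucleates spindle microtubules, was at 261, 256, 223 and 244, 266, 299.6 and 298, 346 and 219.7, 275, 223, 245 and 243, 238, 135 and 271 and 338, 336 and 209 CPM. Kif11 was higher in each CMP Spehd library than in each CMP Renilla library.

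Of the genes of late mitosis, survivin (Birc5), a passenger complex subunit, was at 162, 159.8, 154 and 169 (CMP Renilla), 148, 138 and 144 (CMP sh10), 132 and 132 (CMP sh20), 125, 129, 144 and 140.3 (LSK Renilla), 121, 127 and 112 (LSK sh10) and 151, 149.7 and 109.9 CPM (LSK sh20). Racgap1, of the central spindle, was at 226, 188, 170.1 and 208, 201, 239 and 234, 207 and 217, 217, 223, 243 and 227, 228, 208 and 217 and 238, 235 and 208 CPM. Cdc20, which activates the anaphase-promoting complex, was at 257, 254, 217 and 240, 232, 221 and 215, 219 and 211, 219.5, 199.7, 245 and 207, 187, 230.5 and 184 and 248, 240 and 178 CPM. Birc5 was lower in each CMP Spehd library than in each CMP Renilla library, and for Racgap1 and Cdc20 the CMP groups overlapped. Ube2c (chr2:164769898-164778822, plus strand), the ubiquitin-conjugating enzyme of that complex, was at 159, 158, 135 and 145 (CMP Renilla), 135, 126 and 126 (CMP sh10), 119 and 116 (CMP sh20), 106, 104, 122 and 113 (LSK Renilla), 101, 119.8 and 99.9 (LSK sh10) and 123, 122 and 93.1 CPM (LSK sh20). Each CMP Renilla library was above each LSK Renilla and CMP sh20 library for Ube2c.

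To ask how the cell types differ without Spehd knockdown, CMP Renilla was compared with LSK Renilla. The replication genes Cdc6, Gmnn, Rrm2 and Mcm2 and the mitosis genes Ube2c and Cdk1 were higher in CMP, and the other 11 replication genes did not pass. The mitosis genes Kif23, Ect2, Mki67 and Top2a passed as lower in CMP once LSK sh10 B was left out. At a threshold of 0.05 in edgeR (quasi-likelihood, Benjamini-Hochberg p over every gene tested), 6 of the 44 genes were higher in CMP and 0 lower, where 11% and 8.73% of all 15066 genes tested were called. Cdc6 was higher by 0.57 ± 0.13 (SE) on the log2 scale (48.8%; adjusted p = 0.00619) and Gmnn by 0.46 ± 0.12 (SE) (adjusted p = 0.011). Ube2c was higher by 0.42 ± 0.10 (SE) (adjusted p = 0.00865), Rrm2 by 0.33 ± 0.067 (SE) (0.00259), Cdk1 by 0.29 ± 0.083 (SE) (0.021) and Mcm2 by 0.23 ± 0.048 (SE) (0.00305). Cdk1 missed the threshold without CMP Renilla B (adjusted p = 0.0877), LSK Renilla A (0.0743) or LSK Renilla B (0.0521) and with upper quartile scaling (0.0794). All 15 replication genes had a fold change above 0, from 0.035 (Mcm3) to 0.57 (Cdc6), with a median of 0.12 against -0.021 over all genes tested. The mitosis genes went both ways, with 15 above 0 and 14 below, a median of 0.037 and a range from -0.68 (Kif23) to 0.42 (Ube2c). The replication genes above 0 were 14 of 15 with upper quartile scaling and 9 of 15 with an offset for count density, where their median was 0.017 and that of the mitosis genes -0.11.

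That fit shares 1 estimate of spread over 6 groups, LSK sh10 B among them, although that library is in neither group compared. Without it, 18 of the 44 genes passed, 14 higher and 4 lower in CMP, where 15.7% and 11.2% of all genes were called. The genes added on the CMP side were Mcm5, Mcm10, Cdt1, Rrm1, Ccna2, Ccnb1, Plk1 and Birc5, from 0.14 (Mcm5; adjusted p = 0.0409) to 0.41 (Ccnb1; adjusted p = 0.0189). On the LSK side, Kif23, a motor of the central spindle, differed between CMP and LSK by -0.66 ± 0.19 (SE) (adjusted p = 0.0172), and Ect2, the exchange factor that places the cleavage furrow, by -0.55 ± 0.15 (SE) (adjusted p = 0.0104). Mki67 differed by -0.52 ± 0.18 (SE) (adjusted p = 0.0431) and Top2a by -0.20 ± 0.069 (SE) (adjusted p = 0.0394). Kif23 stood at 101, 98, 110.4 and 124 CPM in CMP Renilla and 197, 157, 176 and 163 CPM in LSK Renilla, and Ect2 at 129, 135, 115 and 112 and 182, 206, 179 and 161 CPM, without overlap for either gene. The 6 genes called with all libraries were among the 18.

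**Figure D3:**
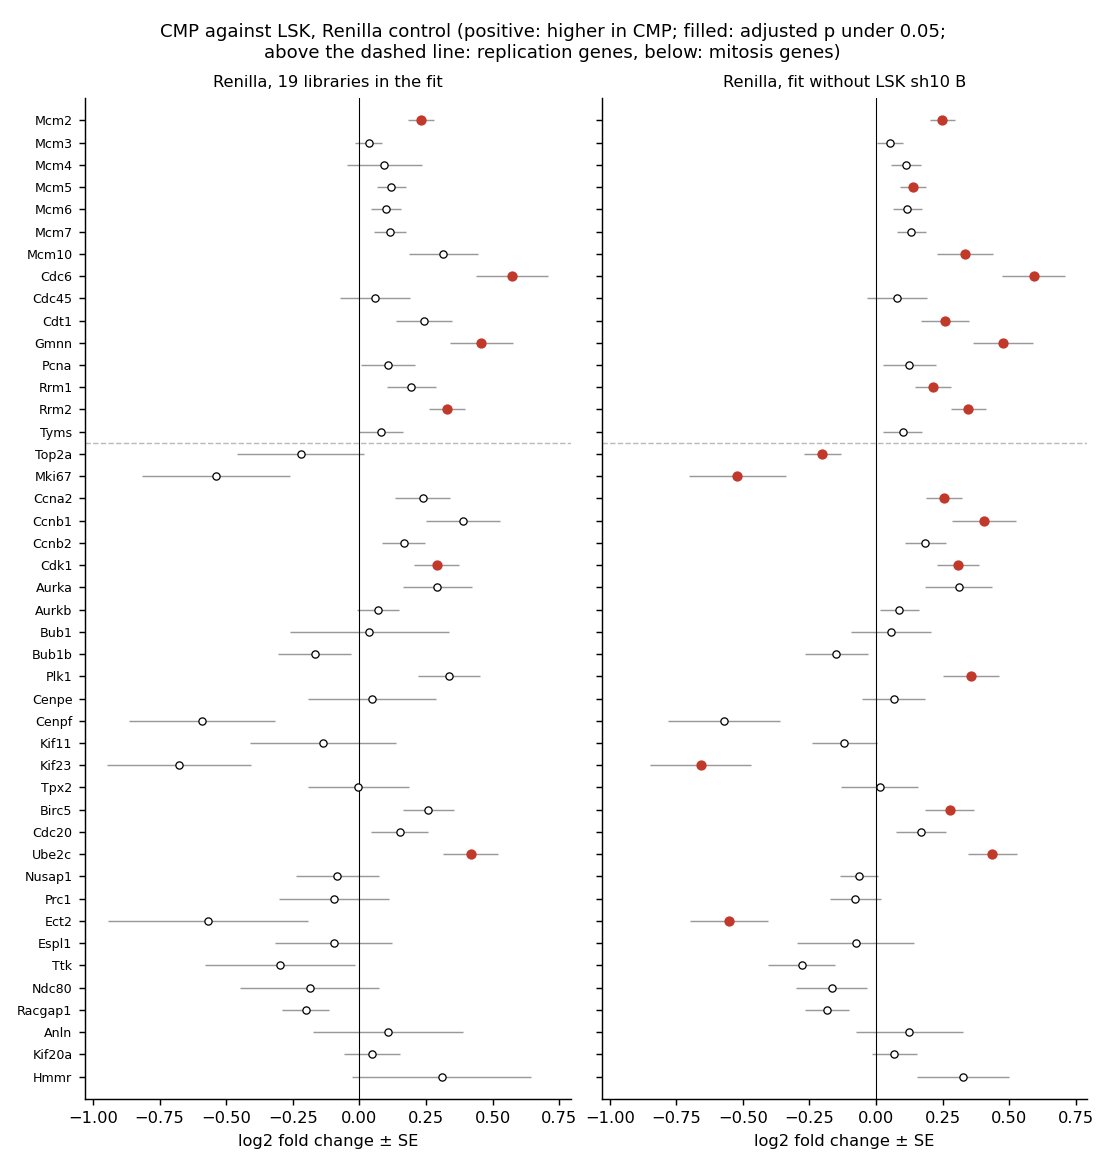
Log2 fold change of CMP against LSK under the Renilla hairpin for the 44 genes, with the standard error as bars, from the fit of all 19 libraries (left) and the fit without LSK sh10 B (right); filled points have an adjusted p under 0.05. The filled points rise from 6 to 18, with Kif23, Ect2, Mki67 and Top2a on the LSK side.

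The cell type calls changed with an offset for read density. Duplicate reads had been removed, which limits the counts of genes dense in reads, and the highest count of any gene in any library was 5235. The part of duplicate removal in these calls was not tested. With an offset for the density of counts, chosen after seeing the data, 4 of the 44 genes were called: Cdc6 and Ube2c higher, and Mcm3 and Racgap1 lower in CMP, beside 8.34% and 8.26% of all genes. Cdc6 was called under every alternative run for the Renilla comparison. With an offset for G+C content, also chosen after seeing the data, 17 genes were called, all higher in CMP, beside 16.4% of all genes higher and 8.02% lower. With no filter on low counts 5 genes were called, Cdc6 higher and Cenpf, Ect2, Kif23 and Mki67 lower in CMP, beside 3.37% and 5.21% of all genes.

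Other genes of the pathway are given beside the 11% of all genes called higher and 8.73% called lower. Of 42 other replication genes (polymerase, GINS, RFC and RPA subunits and the like), 12 were higher in CMP Renilla and 0 lower, with a median of 0.137. Of 42 other mitosis genes, 5 were higher and 1 lower, with a median of 0.157. The summed level of the erythroid marker list was 1386 to 1555 CPM in CMP Renilla and 499.9 to 662 in LSK Renilla (8 of 8 markers detected), and that of the stem cell list 729.8 to 936 and 1354 to 1558 (8 of 8). Megakaryocyte markers summed to 799.9 to 1413 CPM in CMP and 520.4 to 811 in LSK (5 of 5), and granulocyte-monocyte progenitor markers to 494 to 756 and 1094 to 1319 (7 of 7). Mature neutrophil markers summed to 1.19 to 10.1 CPM in CMP Renilla and 4.2 to 292 in LSK Renilla (6 of 6), and B lymphoid markers to 29 to 66 and 62.9 to 70.8 (6 of 6). The part of the mixture of cells in these differences was not tested.

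Within the sh10 hairpin, 9 of the 44 genes were higher in CMP sh10 than in LSK sh10 and 0 lower, where 7.51% and 8.58% of all genes were called by the same edgeR test. The replication genes among them were Mcm10, which stabilises the firing helicase (0.58 ± 0.15 (SE), adjusted p = 0.0124), Cdc6 (0.60), Rrm1 (0.37), Rrm2 (0.34) and Mcm2 (0.24). The mitosis genes were Ccnb1 (0.60 ± 0.16 (SE), adjusted p = 0.0166), Plk1 (0.50), Ccna2 (0.46) and the motor Kif20a (0.39). In all, 43 of 44 fold changes were above 0, with a median of 0.277, or 0.177 with upper quartile scaling. Without LSK sh10 B, Cenpf, Ect2, Kif23 and Ndc80 were below 0 and 40 of 44 above, with a median of 0.253. In that fit 11 were called, all higher in CMP, where 9.44% and 7.48% of all genes were called higher and lower. Kif20a was then no longer called (adjusted p = 0.0822), and Mcm5, Aurkb and Ube2c were. Without CMP sh10 B, 2 genes were called, Ccna2 and Cdc6, and the share of all genes called in that fit is not given here. The mature neutrophil marker sum was 65.3 to 305 CPM in LSK sh10 and 1.4 to 10.4 in CMP sh10 (6 of 6 markers; 4 called lower in CMP). The stem cell sum was 1152 to 1296 CPM in LSK sh10 against 432 to 553 in CMP sh10 (8 of 8; 7 called lower and 1 higher), and the erythroid sum 506 to 708 against 1220 to 1373 (8 of 8; 5 called higher). Their part was not tested.

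Within sh20, 2 of the 44 genes were higher in CMP and 0 lower, where 5.94% and 8.64% of all genes were called. Cdc6 was higher by 0.75 ± 0.17 (SE) (edgeR adjusted p = 0.00697) and Mcm10 by 0.69 ± 0.16 (SE) (adjusted p = 0.00927). The median over the 44 genes was 0.003. Without LSK sh10 B, Rrm2 was also higher (0.24), and Cdc45, a helicase cofactor (-0.45), and Ect2 (-0.57) were lower, where 9.79% and 10.8% of all genes were called. Mcm10 missed the threshold without CMP sh20 B (adjusted p = 0.0584) and Cdc6 without CMP sh20 C (adjusted p = 0.0516), where the 1 CMP sh20 library left is assumed to vary like the other groups. The stem cell marker sum was 1263 to 1556 CPM in LSK sh20 and 741 to 813 in CMP sh20 (5 of 8 called lower). The erythroid sum was 523.5 to 697 and 1280 to 1287 (4 of 8 called higher), and the granulocyte-monocyte progenitor sum 1077 to 1275 and 673 to 675 (5 of 7 called lower). The megakaryocyte sum was 692 to 785 and 1099 to 1104 CPM, and the B lymphoid sum 79.6 to 88.7 and 71.6 to 200.3 CPM. The part of these markers was not tested.

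To ask what Spehd knockdown does in CMP, each hairpin was compared with the same 4 Renilla libraries. Under sh10, Ect2 was higher and no other of the 44 genes passed. It stood at 171, 184 and 194 CPM in CMP sh10 and 129, 135, 115 and 112 CPM in CMP Renilla, without overlap, and at 131 and 110.1 CPM in CMP sh20. The difference was 0.57 ± 0.095 (SE) on the log2 scale (49%; edgeR adjusted p = 0.0255), where 0.977% of all genes were called higher and 0.991% lower. Ect2 (chr3:27097222-27153878, minus strand) had 143 counts per exonic kb on average. Its call was lost without any 1 of the sh10 libraries A (adjusted p = 0.0989), B (0.114) or C (0.0975), or without Renilla A (0.0639), C (0.0585) or D (0.0723), while its fold change stayed between 0.54 and 0.62. It was also lost with all 19 libraries in 1 fit (0.58, adjusted p = 0.546) and with the log2 total as a covariate (0.12, adjusted p = 0.997).

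The 29 mitosis genes had a median fold change of 0.208 under sh10, with 23 above 0, and the 15 replication genes a median of 0, beside -0.014 over all genes tested. With the log2 total as a covariate the mitosis median was 0.093, with 21 above 0. Next to Ect2 the smallest p-values were those of Top2a (0.36 ± 0.081 (SE), edgeR adjusted p = 0.0538), Mki67 (0.67 ± 0.15 (SE), adjusted p = 0.0552), Mcm10 (0.43 ± 0.11 (SE), adjusted p = 0.0688) and Anln, a scaffold of the contractile ring (0.66 ± 0.17 (SE), adjusted p = 0.0766), none of which passed. At an unadjusted p under 0.05 there were 17 of the 44 genes, beside 21.2% of all genes. DESeq2 called 8, all higher (Anln, Bub1b, Ect2, Espl1, Kif11, Mcm10, Mki67 and Top2a), where it called 4.81% of all genes higher and 4.45% lower. Of the other 42 replication genes 1 was higher in edgeR, with 13 at an unadjusted p under 0.05 and 4 called by DESeq2, and of the other 42 mitosis genes 0 passed in edgeR, with 10 at an unadjusted p under 0.05 and 3 called by DESeq2. In CMP sh10 the stem cell marker sum was 432 to 553 CPM and the granulocyte-monocyte progenitor sum 907 to 1129 CPM, and neither range overlapped that of CMP Renilla. The erythroid sum, 1220 to 1373 CPM against 1386 to 1555, did not overlap either (7 of 8 markers below 0, 0 called by edgeR), and all 5 megakaryocyte markers were below 0 with 1 called lower. The part of these cell mixture values was not tested.

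Under sh20, Mcm6 and Mcm7, subunits of the same helicase ring, were lower and Mcm10 was higher than in Renilla. Mcm6 (chr1:128331590-128359664, minus strand) stood at 458 and 493 CPM in CMP sh20 and 625, 589, 589 and 595 CPM in CMP Renilla. Mcm7 (chr5:138164583-138172422, minus strand) stood at 218 and 237 and 299, 294, 286 and 291 CPM, and Mcm10 (chr2:4989714-5012791, minus strand) at 204 and 193 and 118, 128, 155 and 122 CPM. For each of the 3 genes these groups did not overlap. Mcm6 differed by -0.32 ± 0.05 (SE) (adjusted p = 0.00971), Mcm7 by -0.35 ± 0.06 (SE) (adjusted p = 0.0145) and Mcm10 by 0.61 ± 0.12 (SE) (adjusted p = 0.0219) in the edgeR test, so that 1 of 44 genes was higher and 2 lower, where 1.9% and 4.27% of all genes were called. In CMP sh10 these genes stood at 559, 553 and 552 (Mcm6), 278, 264 and 264 (Mcm7) and 166, 198 and 167 CPM (Mcm10), with differences of -0.12, -0.12 and 0.43 that did not pass. The span of Mcm7 overlaps those of Cops6 and Ap4m1 on the opposite strand. Reads from exonic bases they share cannot be told apart, since the library kit does not mark strand. How many bases are shared was not measured. The same holds for Kif20a with Cdc23, Ccna2 with Exosc9, Cdc45 with Ufd1, Cdc20 with Elovl1, Nusap1 with Oip5, Prc1 with Rccd1 and Plk1 with Gm44985.

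The 3 genes differed in read density. Mcm6 had 553 counts per exonic kb, Mcm7 284 and Mcm10 87.2, and both CMP sh20 libraries were deeper than any CMP Renilla library. With the density offset, Mcm6 differed by -0.065 and Mcm7 by -0.25 and neither passed, whereas Mcm10 did. With the G+C offset Mcm7 did not pass (-0.28, adjusted p = 0.0619), and Mcm6 and Mcm10 did. With the log2 total as a covariate none of the 3 passed, at -0.13 (Mcm6), -0.14 (Mcm7) and 0.12 (Mcm10). Without sh20 B, Mcm6 passed (adjusted p = 0.0404) and Mcm7 (0.0604) and Mcm10 (0.0588) did not, in a fit where the 1 sh20 library left is assumed to vary like the other groups. Mcm10 also missed the threshold without Renilla A (0.0515), B (0.0541) or D (0.0508). The median over replication genes was -0.167 with 12 of 15 below 0, and over mitosis genes 0.111 with 21 of 29 above 0, or 0.009 with 16 of 29 above 0 without sh20 B. With the density offset the replication median was 0.044, and with the log2 total as a covariate the mitosis median was -0.02, so that neither direction held under every alternative. DESeq2 called 8 genes: Kif11, Kif23 and Mcm10 higher, and Birc5, Mcm2, Mcm6, Mcm7 and Ube2c lower, where it called 4.49% of all genes higher and 6.51% lower. In edgeR 1 of the other 42 replication genes was higher and 5 lower (DESeq2 2 and 5), and of the other 42 mitosis genes 2 were higher and 1 lower (DESeq2 6 and 2). The B lymphoid marker sum was 71.6 to 200.3 CPM in CMP sh20 (5 of 6 markers, Pax5 at 0), above CMP Renilla, with Cd79a at 0.503 CPM in one library and 36.3 in the other. The erythroid sum was 1280 to 1287 CPM, below CMP Renilla (8 of 8 markers; 3 called lower and 1 higher), and the sum of the genes of the sorting gate 796 to 964 against 1103 to 1290 CPM (6 of 6; 1 called lower). Of the 6 gate genes, 4 were below 0 and 2 above. Cd34 was at 185 to 187.5 CPM against 298.5 to 407.5 in CMP Renilla, and Fcgr3 at 17.6 to 29.7 against 7.845 to 17.8 CPM. The part of these mixtures was not tested.

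**Figure D4:**
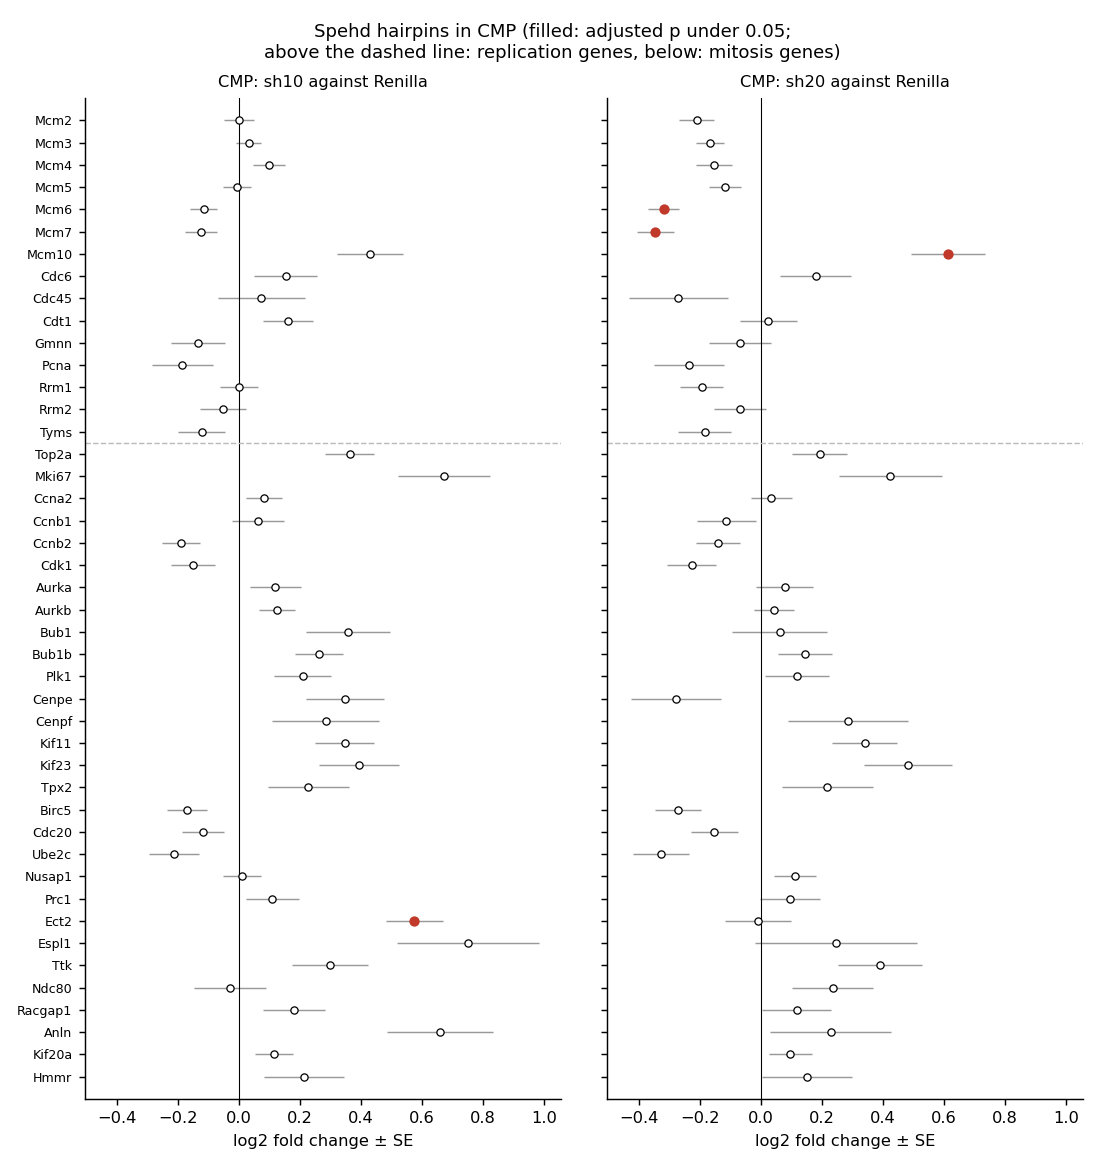
Log2 fold change of sh10 (left) and sh20 (right) against the same CMP Renilla libraries for the 44 genes, with the standard error as bars; filled points have an adjusted p under 0.05. Ect2 is filled under sh10, and Mcm6, Mcm7 and Mcm10 under sh20.

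Across the 44 genes, the fold changes of both CMP comparisons moved with gene length and count density. Under sh10, Pearson's r was 0.595 with log2 exonic length and -0.495 with log2 counts per exonic kb. Under sh20 these were 0.443 and -0.415. These are descriptions over 44 genes that share libraries. The longest genes with fold changes above 0.5 under sh10 were Mki67, Espl1 and Anln.

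With both hairpins pooled against Renilla in CMP, 0 of the 44 genes passed edgeR's test, where 0.0387% of all genes were called higher and 0.0774% lower. At an unadjusted p under 0.05 there were 17, beside 16.6% of all genes. DESeq2 called 8, with Kif11, Kif23, Mcm10, Mki67, Top2a and the checkpoint kinase Ttk higher and Birc5 and Ube2c lower, where it called 4.77% of all genes higher and 4.62% lower. The smallest p-values in edgeR were those of Mcm10 (0.51 ± 0.10 (SE), adjusted p = 0.07) and Mki67 (0.58 ± 0.14 (SE), adjusted p = 0.0902). The other 42 replication and 42 mitosis genes also gave 0 calls by edgeR, with 11 and 13 at an unadjusted p under 0.05, and DESeq2 called 6 of 42 and 5 of the 40 with an adjusted p.

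In LSK, none of the 44 genes passed under sh10, sh20 or both pooled, and 0% of all genes were called higher or lower in these 3 edgeR comparisons. DESeq2 also called 0 of the 44 in each, beside 0.00986% (sh10), 1.16% (sh20) and 0% (pooled) of all genes. An unadjusted p under 0.05 was found for 2 (sh10), 2 (sh20) and 1 (pooled), beside 3.3%, 8.33% and 3.66% of all genes. Mcm6 stood at 530.4, 534, 626 and 548 CPM in LSK Renilla, 495, 474 and 494 in LSK sh10 and 512, 528 and 477 in LSK sh20, and the hairpin groups lay below each Renilla library. Its differences were -0.19 ± 0.076 (SE) (sh10; edgeR adjusted p = 0.995), -0.17 ± 0.076 (SE) (sh20; 0.591) and -0.18 ± 0.062 (SE) (pooled; 0.998). Cdt1 differed by 0.32 ± 0.14 (SE) under sh10 (adjusted p = 0.995), and by 0.17 without LSK sh10 B. Cenpf differed by -0.79 ± 0.34 (SE) under sh20 (adjusted p = 0.572; -0.51 without LSK sh20 C) and by -0.57 ± 0.28 (SE) pooled (adjusted p = 0.998). The other 42 replication and 42 mitosis genes also gave 0 calls in LSK by edgeR and by DESeq2, with at most 3 and 1 at an unadjusted p under 0.05.

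LSK sh10 B set the low mitosis values of its group. Against the mean of A and C, its mitosis genes were lower by 0.918 on average on the log2 scale and its replication genes by 0.067. The lowest, named after their values were seen, were Ect2 at 27.9 CPM against 195 and 227, and Hmmr, a spindle assembly factor, at 29.6 CPM against 143 and 168. Bub1, Ttk, Kif11, Top2a and Ndc80 were also more than 1 log2 unit lower, as were 14 of the 44 in all. Plk1, Cdc20, Ube2c, Aurkb, Birc5 and Cdk1, which act in the same phase, were higher in B than in the mean of A and C by 0.093 to 0.357. Without B the median difference of the 44 genes between LSK sh10 and Renilla was -0.043 in place of -0.144.

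The low values in LSK sh10 B went with base composition. Of the 15 genes with the lowest G+C over all their annotated transcripts (40.6% to 44.6%), 11 were more than 1 log2 unit lower in B, with a median of -1.61. Of the 15 with the highest (48.9% to 58.6%), 0 were, with a median of 0.09. Over the 44 genes the deviation of B and G+C had r = 0.777, and over 15002 genes r = 0.524. Pcna, at 42.3% G+C, was an exception with -0.052. The other CMP and LSK libraries outside this group had r between -0.058 and 0.072 over all genes. Over the 44 genes their r ran from -0.463 (CMP sh10 C) to 0.27 (CMP Renilla A). Mitosis genes had a lower median G+C (46.4%) than replication genes (48.7%). The share of reads that HTSeq assigned to no gene was 53.8% in B and 51.9% to 53.8% in the other libraries, and the ambiguous share, 0.827%, was the highest of all. The part of G+C content and of read quality in the low values of B was not tested beyond these figures and the G+C offset.

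**Figure D5:**
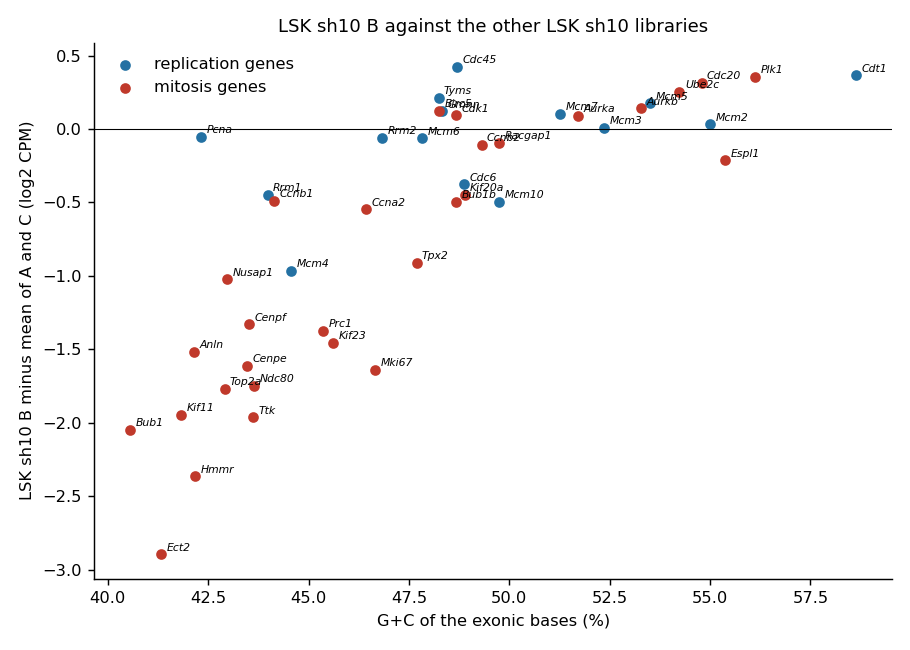
Difference in log2 CPM between LSK sh10 B and the mean of A and C for each of the 44 genes, against the G+C percentage over all its annotated transcripts (exonic bases on the axis). The differences run from -2.90 (Ect2) to 0.42 (Cdc45), and the low values are at low G+C.

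LSK sh20 also spread: the mitosis genes of replicate C lay 0.478 below the mean of A and B on the log2 scale, and its replication genes 0.004 above. Over all genes its deviation had r = -0.026 with G+C. Kif23 was at 303, 194 and 126 CPM and Hmmr at 243, 184 and 124 CPM in A, B and C, so that A was the highest and C the lowest of the 3 for both.

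Whether a hairpin acted differently in CMP and LSK was tested as an interaction in the fit of 19 libraries. No member passed for sh10, where 0% of all genes were called higher and 0.0199% lower, or for sh20, where 0.106% and 0.478% were called. In edgeR 3 (sh10) and 5 (sh20) of the 44 had an unadjusted p under 0.05, beside 7.76% and 13.8% of all genes, and DESeq2 called 0 in both, beside 0.117% and 1.89%. The smallest p-values for sh10 were those of Mki67, with a difference of 1.1285 ± 0.42 (SE) between CMP and LSK (adjusted p = 0.639), and Kif20a with 0.35 ± 0.16 (SE) (adjusted p = 0.64). Without LSK sh10 B they were 0.769 (Mki67) and 0.219 (Kif20a). For sh20 they were those of Cdc45, with -0.53 ± 0.21 (SE) (adjusted p = 0.294; -0.32 without CMP sh20 B and -0.80 without CMP sh20 C), and Cdk1, with -0.32 ± 0.14 (SE) (adjusted p = 0.307). Cdc45 stood at 69 and 95.9 CPM in CMP sh20, 102, 88.2, 92.3 and 119 in CMP Renilla, 116, 106 and 120.3 in LSK sh20 and 90.4, 93.4, 95.7 and 106 in LSK Renilla. The median over the mitosis genes for sh10 was 0.427, or 0.219 without LSK sh10 B.

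By role, the licensing and helicase genes had medians of 0.12 (CMP against LSK, Renilla), 0.032 (CMP sh10 against Renilla) and -0.154 (CMP sh20 against Renilla). The 4 genes of DNA synthesis and nucleotides had 0.151, -0.088 and -0.189, and the cyclins with Cdk1 0.264, -0.044 and -0.127. The 6 mitotic kinases (Aurka, Aurkb, Plk1, Bub1, Bub1b and Ttk) had 0.053, 0.235 and 0.098, and all 6 were above 0 in both CMP hairpin comparisons, which share the Renilla libraries. The 7 spindle genes (Kif11, Kif23, Kif20a, Tpx2, Nusap1, Prc1 and Hmmr) had -0.082, 0.214 and 0.151, with all 7 above 0 under both hairpins. With the log2 total as a covariate, 5 kinases and 3 spindle genes were above 0 under sh10, and 3 and 1 under sh20. Without CMP sh20 B, 4 of 6 kinases and 6 of 7 spindle genes were above 0 under sh20, without Renilla C 5 of 6 kinases were, and without CMP sh10 C 6 of 7 spindle genes were above 0 under sh10. The 4 genes of the passenger complex and cytokinesis had -0.047, 0.378 and 0.053, and Cdc20, Ube2c and Espl1, which end mitosis, had 0.151, -0.119 and -0.153. Espl1, the separase that cuts cohesin, stood at 207, 263 and 224 CPM in CMP sh10 and 149.6, 134, 137 and 128 in CMP Renilla, and in CMP sh20 at 227 and 95.2 CPM. With all libraries, 15 of the 44 genes passed in at least 1 of the 11 comparisons and 29 in none, beside 35% of all genes that passed in at least 1, a share close to that of the 44. Among the latter were Mcm3, Mcm4, Ccnb2, Aurka, Bub1b, Cenpe, Nusap1 and Prc1.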

How the data were processed

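RNA of zsGreen+ CMP and LSK cells was amplified with the SMART-Seq v4 kit and sequenced. Per the submitters' notes and methods, the authors aligned reads to mm10 with STAR, removed duplicate reads with Picard and counted reads per GENCODE gene with HTSeq. The deposited values are raw counts per gene, and a table of the authors' normalized values was not used here. The 5 rows that name no gene were left out: reads assigned to no gene were 51.9% to 53.8% of all and ambiguous reads 0.69% to 0.83%. Total counts per library were 3647318 to 5965155. Duplicate removal limits counts of dense genes, and the methods name default settings, with which HTSeq counts by strand, although the kit does not mark strand, so reads assigned to no gene may include antisense reads within genes.

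Counts were filtered (filterByExpr, minimum count 10, minimum total 15), scaled by TMM and tested with edgeR 4.0.16 (quasi-likelihood test, R 4.3.3), with Benjamini-Hochberg adjustment over all genes tested and a threshold of 0.05. Each hairpin was compared with Renilla in a fit of 3 groups per cell type, both hairpins pooled in a fit of 2 groups, and the cell types and interactions in a fit of 6 groups. CPM and log2 CPM (prior count 2) of the 44 genes are TMM-scaled over 19 libraries and 15066 genes, and CPM of markers use plain totals. Alternatives were RLE and upper quartile scaling, other filters, DESeq2 1.42.0, the replicate letter as a block, the log2 total as a covariate, 1 fit of all libraries and leaving out each library. Offsets for G+C and count density (splines of 4 degrees of freedom) were added after seeing the data. The scripts were tested on simulated data. Gene coordinates are those of a GENCODE release on GRCm38 later than the authors' own, and promoters are RefSeq's on GRCm38.p6.

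The 44 genes and the other lists were chosen with earlier results of these data known. Values in every library are given for 24 genes chosen by role, and the genes past the threshold in a comparison are named, or, where none passed, those with the smallest p. Other genes were named after their values were seen. Median fold changes and correlations over the genes are descriptions without a test.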

Additional observations from a re-analysis of the deposited data

Results flagged for a closer look

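In 96 sets of values (the 44 genes in each Renilla group and the class means in the Renilla and Spehd groups of each cell type) the gap of the highest or lowest library to its neighbour was divided by the range of the set, and 3 sets exceeded Dixon's critical value, where chance gives about 1 in 20. Mcm2 in LSK Renilla C was at 491.5 CPM against 456 to 458 CPM in the other LSK Renilla libraries (ratio 0.93). Mcm3 in the same library was at 503 CPM against 437 to 447 CPM (ratio 0.835). Espl1 in LSK Renilla B was at 169 CPM against 138 to 140.2 CPM (ratio 0.922). LSK Renilla C had the fewest counts of all libraries (3647318), and the part of its depth in these values was not tested.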

How the results depend on the processing

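Counts below are of the 44 genes called. The share of all genes called is given above for DESeq2 and, between CMP and LSK Renilla, for the offsets and no filter. For the other settings it is not given, so those counts are not compared with all genes. With no filter on low counts they were 7 (CMP sh10), 6 (CMP sh20), and 2 in each interaction, and with at least 10 counts in every library 3 in CMP sh10. DESeq2 called 8 in CMP sh10, 8 in CMP sh20 and 8 in CMP with the hairpins pooled. Upper quartile scaling gave 7 in CMP sh20 and 5 between CMP and LSK under sh10, where it moved the median of all genes from 0.007 to -0.114. With the log2 total as a covariate in a fit of 19 libraries 0 were called in CMP sh10 and 0 in CMP sh20. With all 19 libraries in 1 fit the counts were 0 in CMP sh10 and 3 in pooled CMP. The offsets gave 2 in CMP sh10 (each), 1 in CMP sh20 (density), 17, 20 and 4 between CMP and LSK under Renilla, sh10 and sh20 (G+C), and 5 under sh10 (density). The G+C offset moved the median of all genes under sh20 from -0.017 to 0.116. The cause of these shifts was not tested.

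The replicate letters did not pair the libraries: same-letter CMP and LSK libraries of 1 hairpin correlated at -0.000694 to 0.21 in their deviations from group means (9 pairs), and same-letter libraries of 1 cell type at -0.0792 to 0.0444 (16 pairs). With the letter as a replicate block, the counts were 0 in CMP sh10 (without Ect2), 0 in CMP sh20 (without Mcm6, Mcm7 and Mcm10), and 6, 9 and 2 between CMP and LSK under Renilla, sh10 and sh20.

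Leaving out each library in turn gave 0 to 8 (CMP sh10; 8 without CMP sh20 C, 7 without CMP sh20 B, 2 without CMP Renilla B, and 0 without any 1 of CMP sh10 A, B and C and CMP Renilla A and D), 1 to 8 (CMP sh20; 1 without CMP sh20 B, 8 without C, each with 1 sh20 library assumed to vary like the others) and 0 to 1 (pooled CMP; 1 without CMP sh20 C). Between CMP and LSK it gave 5 to 18 (Renilla; 18 without LSK sh10 B), 2 to 12 (sh10; 2 without CMP sh10 B) and 1 to 5 (sh20; 5 without LSK sh10 B, 1 without CMP sh20 B). In LSK and the interactions it gave 0. The share of all genes called is given above only for the cell type fits without LSK sh10 B. The other counts are therefore not compared with all genes. The fold changes of the genes named by the rule kept their sign in all these settings. Over pairs of such a gene and a setting, 69 lost a call, 4 gained one and 749 stayed on their side of the threshold. Mcm3, outside that rule, was above 0 between CMP and LSK Renilla and called lower with the density offset.

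The groups hold 2 to 4 libraries. Spehd was not measured, and in CMP depth and the Spehd hairpins cannot be told apart.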
